A study of Mus musculus with 12 samples.

Results

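The 10 genes described here encode fibronectin (Fn1), the A subunit of coagulation factor XIII (F13a1), 5 matrix metalloproteinases (Mmp9, Mmp12, Mmp13, Mmp14 and Mmp19) and 3 tissue inhibitors of metalloproteinases (Timp1, Timp2 and Timp3). They were chosen by symbol as genes of plaque matrix, its crosslinking and its breakdown, and are 10 of the 23438 genes in the deposited table. Messenger RNA had been sequenced from macrophages grown from the marrow of mice (bone marrow derived macrophages, abbreviated BMDMs) and taken on day 7 of differentiation. The 12 libraries were 5 from Baf60a knockout (KO) and 7 from wild-type (WT) BMDMs, and the series title names atherosclerotic C57 mice as the source of both. The labels give neither age nor sex, do not say how the knockout was made or how atherosclerosis was brought about, and do not say whether libraries came from separate mice or pools. All p-values therefore rest on the spread among libraries, part of which may be technical.

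Fibronectin is a large adhesive glycoprotein that cells lay down as fibrils and that integrins and syndecans bind. Factor XIII is a transglutaminase that crosslinks fibrin and fibronectin, and its A subunit is made in cells of the monocyte lineage. Matrix metalloproteinases are zinc enzymes that cut collagen, elastin and other matrix proteins, TIMPs block them by binding the active site, and in plaques the enzymes of macrophages are known for breaking down the fibrous cap.

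Values are TPM, the share of a library's transcripts that comes from a gene after correction for length, so levels of different genes can be compared. Smarcd1, which encodes Baf60a, was at 5.99 to 7.58 TPM in KO and 11.6 to 15.6 TPM in WT. WT replicates 2, 3 and 4 stood apart from the other 9 libraries. Among 17 stromal markers, 9 of 11 fibroblast genes and 6 of 6 smooth muscle genes were higher in each of these 3 libraries than in any of the other 9. The summed stromal level was 5185 to 13322 TPM in WT replicates 2, 3 and 4 and 145.9 to 561 TPM in WT replicates 1, 5, 6 and 7, with 256 to 791 TPM in KO. Of the defining markers, Lum was at most 0.12 TPM in all 12 libraries, and Thy1 and Myh11 were at most 0.37 and 0.45 TPM outside WT replicates 2, 3 and 4. The sum of 10 macrophage markers was 10723 to 11277 TPM in KO, 2668 to 5517 TPM in WT replicates 2, 3 and 4, and 11085 to 13433 TPM in the other WT libraries. Of these 10 markers, 6 were lower in each of WT replicates 2, 3 and 4 than in any of the other 9 libraries. Cd68, Adgre1, Itgam and Mertk were not, and Cd68 levels in these 3 libraries were 1533, 1718 and 1119.6 TPM, beside 1379 to 1709.6 TPM elsewhere. The sum of 7 neutrophil markers was 6247 TPM in KO replicate 1, 4372 TPM in KO replicate 4, 1003 to 2104 TPM in the other KO libraries, 79.1 to 107.9 TPM in WT replicates 2, 3 and 4, and 1191 to 1545 TPM in the other WT libraries. The sum of 5 endothelial markers lay between 6.38 and 51.1 TPM, and that of 5 dendritic cell markers was at most 2.27 TPM. In such bulk samples fewer cells of a type and less RNA per cell cannot be told apart. The 10 genes were tested with all 12 libraries and with the 9 that leave out WT replicates 2, 3 and 4.

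All 10 genes passed the filter of at least 1 TPM in at least 5 libraries that left 11152 genes to test. With 12 libraries, 0 of the 10 genes passed an adjusted p of 0.05 in limma, where 0.126% of all genes tested did (14 genes, 12 of them higher in KO). At an unadjusted p of 0.05, 2 of the 10 passed (Fn1 and Mmp14), beside 1954 of all genes tested. With 9 libraries, 2 of the 10 passed in limma, Fn1 and F13a1, both lower in KO. In that comparison 2.33% of all genes tested passed (260 genes), and 0.717% passed and were lower in KO (80 genes). The median log2 fold change of the 10 genes was -0.28 with 12 libraries and 0.02 with 9, and that of all genes tested was 0.04 and 0.05. Ranges of KO and WT libraries did not overlap for 1 of the 10 genes with 12 libraries (Fn1), where this held for 3.56% of all genes tested. With 9 libraries they did not overlap for 3 of the 10 (Fn1, F13a1 and Mmp9), where this held for 9.17% of all genes tested. Fold changes are differences of mean log2(TPM + 1), KO minus WT, which understates changes of genes at low levels.

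**Figure D1:**
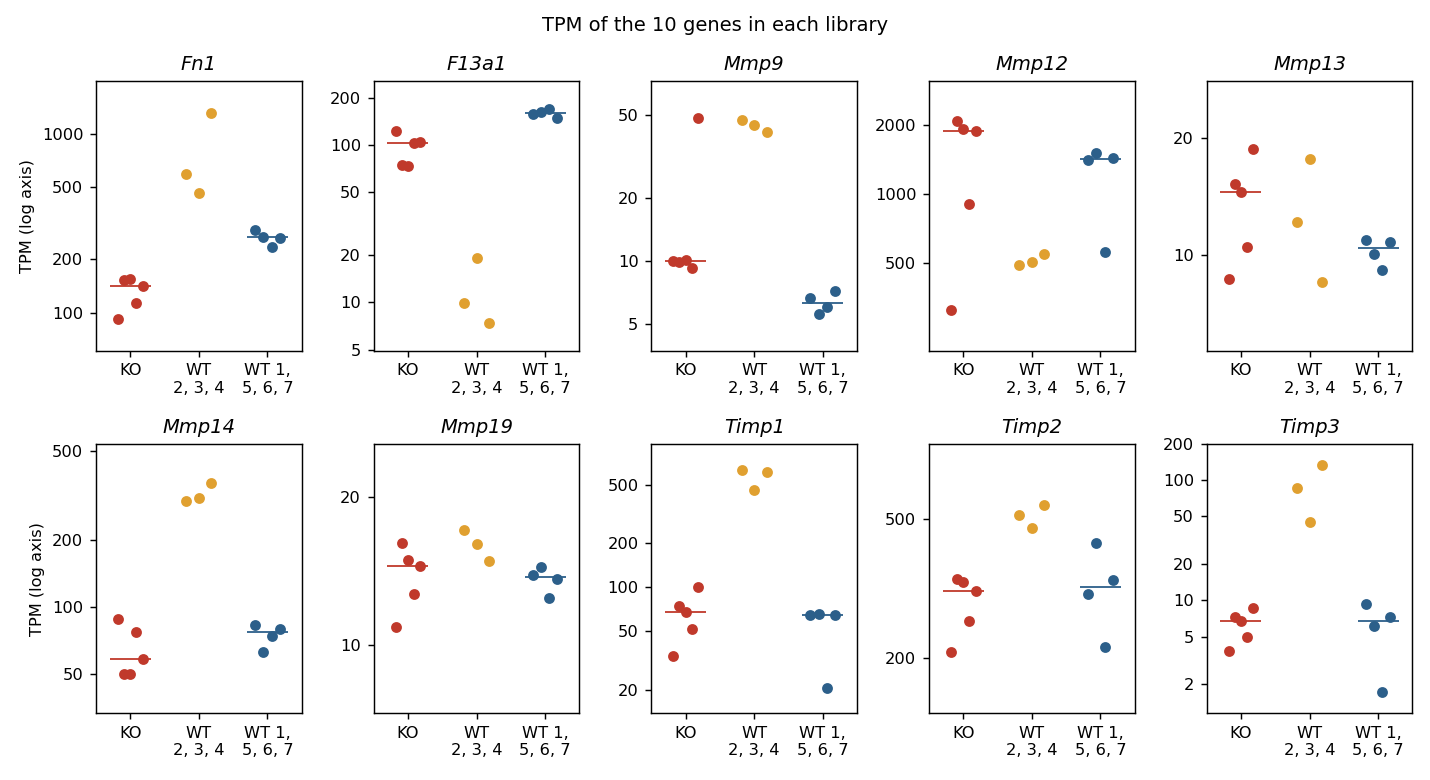
TPM of each of the 10 genes (vertical log axes) in every library, with KO at the left, WT replicates 2, 3 and 4 in the middle and WT replicates 1, 5, 6 and 7 at the right. Each point is 1 library, horizontal lines are medians of KO and of WT replicates 1, 5, 6 and 7, and all KO points lie below all WT points for Fn1 only.

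Transcripts of the matrix protein were lower in every KO library than in any WT library. Fn1 (ENSMUSG00000026193, chromosome 1, 71585520 to 71653200, minus strand, GRCm38) was at 92.0, 151.9, 153.2, 113.9 and 140.3 TPM in KO replicates 1 to 5. It was at 593.9, 463.6 and 1308 TPM in replicates 2, 3 and 4 of WT, against 288.1, 265.0, 233.0 and 260.9 TPM in WT replicates 1, 5, 6 and 7. Every KO library lay below every WT library, and WT replicates 2, 3 and 4 lay above the other 4 WT libraries. With 12 libraries the mean was 130.3 ± 26.6 TPM in KO and 488 ± 385 TPM in WT (SD, n = 5 and 7), a log2 fold change of -1.64 ± 0.390 (SE) at an adjusted p of 0.1495 (limma). With 9 libraries the WT mean was 262 ± 22.6 TPM (SD, n = 4), and the log2 fold change was -1.02 ± 0.146 (SE) at an adjusted p of 0.0121 (limma). The KO level on that scale was 0.492 of the WT level. The stromal sums were 256, 571, 559, 360 and 791 TPM in KO replicates 1 to 5. They were 555, 520 and 561 TPM in WT replicates 1, 5 and 7. With the mean log2 level of the 17 stromal markers as a covariate, the log2 fold change of Fn1 was -1.115 with 12 libraries and -1.11 with 9, with adjusted p-values in limma of 0.0131 and 0.00129. WT replicate 6 had the lowest stromal sum of all (145.9 TPM) and the lowest Fn1 level of the WT libraries. KO replicates 1 and 4, with the lowest Fn1 levels, had the highest neutrophil marker sums (6247 and 4372 TPM). Beyond the fit with the stromal covariate, the part of stromal or neutrophil content in the Fn1 level was not tested. Without WT replicate 1 the 9-library log2 fold change was -0.98 and its limma adjusted p 0.0518, and the call held in the other 8 fits that left out a library.

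Transcripts of the crosslinking enzyme were lower in KO than in 4 WT libraries and higher than in the other 3. F13a1 (ENSMUSG00000039109, chromosome 13, 36867178 to 37050244, minus strand, GRCm38) was at 122.2, 74.5, 73.0, 102.4 and 103.9 TPM in KO replicates 1 to 5. It was at 9.88, 19.3 and 7.39 TPM in replicates 2, 3 and 4 of WT, against 157.3, 161.6, 170.0 and 147.9 TPM in WT replicates 1, 5, 6 and 7. The KO libraries thus lay between the 2 sets of WT libraries without overlapping either. With 12 libraries the log2 fold change was 0.83 ± 0.847 (SE) at an adjusted p of 0.529 (limma). With 9 libraries the mean was 95.2 ± 21.1 TPM in KO and 159.2 ± 9.19 TPM in WT (SD, n = 5 and 4), and the log2 fold change was -0.76 ± 0.145 (SE) at an adjusted p of 0.0296 (limma). This call held in 3 of the 9 fits that left out a library, with adjusted p-values in limma of 0.0149 to 0.0900. It was lost without KO replicates 2, 3 or 4 and without WT replicates 1, 5 or 7, while the log2 fold change stayed between -0.86 and -0.67. It was also lost without the filter on low values and with a term for the submission number, at adjusted p-values in limma of 0.0616 and 0.0585. F13a1 and the macrophage marker sum were both lowest in WT replicates 2, 3 and 4, and the part of cell content in this difference was not tested.

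The 2 start sites of F13a1 listed by RefSeq (GRCm38.p6, minus strand) have the upstream windows below, shown because F13a1 is 1 of the 2 genes that passed the test. They are chr13:37049214-37049463 and chr13:37050245-37050494, printed 5′ to 3′ on the gene's strand, the first ending at the inner start and the second at the outer. Neither contains the AP-1 motif TGANTCA, which would be in capitals. AP-1 is a pair of Fos and Jun family proteins known for activating metalloproteinase genes. The motif reads the same on both strands, so 1 search covers both. Fn1 has no entry in the promoter table.
F13a1 inner start: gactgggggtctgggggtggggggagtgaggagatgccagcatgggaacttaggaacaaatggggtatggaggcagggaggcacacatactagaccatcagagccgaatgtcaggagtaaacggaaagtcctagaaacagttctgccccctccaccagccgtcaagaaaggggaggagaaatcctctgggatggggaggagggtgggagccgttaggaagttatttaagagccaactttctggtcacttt
F13a1 outer start: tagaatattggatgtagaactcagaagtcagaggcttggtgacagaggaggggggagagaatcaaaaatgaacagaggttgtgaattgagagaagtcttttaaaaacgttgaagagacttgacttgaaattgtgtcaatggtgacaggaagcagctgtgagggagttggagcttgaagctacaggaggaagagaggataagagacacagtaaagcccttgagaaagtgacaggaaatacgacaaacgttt

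Among the secreted metalloproteinases, the macrophage elastase Mmp12 was the most abundant of the 10 genes in all KO libraries and in WT replicates 1, 5, 6 and 7. Mmp12 (ENSMUSG00000049723, chromosome 9, 7344381 to 7369499, plus strand, GRCm38) was at 312.7, 2076, 1931, 905.9 and 1883 TPM in KO replicates 1 to 5. It was at 490.3, 509 and 551 TPM in replicates 2, 3 and 4 of WT, against 1407, 1512, 558 and 1440.3 TPM in WT replicates 1, 5, 6 and 7. KO replicate 1 was the lowest of all 12 libraries and KO replicate 2 the highest, so the genotypes overlapped. The log2 fold change was 0.52 ± 0.514 (SE) with 12 libraries and 0.03 ± 0.567 (SE) with 9, with adjusted p-values in limma of 0.517 and 0.988. The 95% interval of the 9-library value ran from -1.24 to 1.30. KO replicate 1, the lowest for Mmp12, also had the highest neutrophil marker sum, and WT replicate 6, the next lowest of the 9, had the lowest stromal sum. The part of either in the Mmp12 level was not tested.

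Mmp9, the gelatinase that is stored in neutrophil granules and also made by macrophages, had 1 high KO library. Mmp9 (ENSMUSG00000017737, chromosome 2, 164940780 to 164955850, plus strand, GRCm38) was at 9.96, 9.88, 10.1, 9.22 and 48.6 TPM in KO replicates 1 to 5. It was at 47.5, 44.7 and 41.5 TPM in replicates 2, 3 and 4 of WT, against 6.64, 5.58, 6.02 and 7.21 TPM in WT replicates 1, 5, 6 and 7. KO replicate 5 was the highest of all 12 libraries, and the other 4 KO libraries lay just above WT replicates 1, 5, 6 and 7. With 9 libraries the log2 fold change was 0.997 ± 0.432 (SE) at an adjusted p of 0.249 (limma). Without KO replicate 5 it was 0.56 at an adjusted p of 0.0199 (limma). With 12 libraries the log2 fold change was -0.13 ± 0.677 (SE), at an adjusted p of 0.909 (limma). The neutrophil marker sum of KO replicate 5 was 1003 TPM, the lowest of the 9 libraries.

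The collagenase Mmp13, which cuts fibrillar collagen, was low in all libraries. Mmp13 (ENSMUSG00000050578, chromosome 9, 7272514 to 7283331, plus strand, GRCm38) was at 8.70, 15.3, 14.5, 10.5 and 18.7 TPM in KO replicates 1 to 5. It was at 12.2, 17.6 and 8.51 TPM in replicates 2, 3 and 4 of WT, against 10.9, 10.1, 9.15 and 10.8 TPM in WT replicates 1, 5, 6 and 7. KO replicates 2, 3 and 5 lay above the 4 WT libraries of the 9-library comparison, KO replicate 1 lay below all of them, and KO replicate 4 lay among them. KO and WT differed by a log2 fold change of 0.22 ± 0.197 (SE) with 12 libraries and 0.33 ± 0.186 (SE) with 9, with adjusted p-values in limma of 0.468 and 0.374.

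Mmp19, a broad-spectrum secreted enzyme, varied least of the 10 genes. Mmp19 (ENSMUSG00000025355, chromosome 10, 128790910 to 128800824, plus strand, GRCm38) was at 10.9, 16.1, 14.9, 12.7 and 14.5 TPM in KO replicates 1 to 5. It was at 17.1, 16.1 and 14.8 TPM in replicates 2, 3 and 4 of WT, against 13.9, 14.5, 12.5 and 13.7 TPM in WT replicates 1, 5, 6 and 7. The genotypes overlapped with or without WT replicates 2, 3 and 4. The log2 fold change was -0.083 ± 0.0999 (SE) with 12 libraries (adjusted p by limma, 0.593). With 9 libraries it was 0.011 ± 0.101 (SE), with a 95% interval from -0.22 to 0.24 and a limma adjusted p of 0.968. Tmem198b, on the opposite strand over part of Mmp19, was at 9.78 to 14.4 TPM, and since the handling of strand is not given in the sources used here, reads of the 2 genes may not be told apart.

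Mmp14 (also called MT1-MMP) is anchored in the cell membrane, where it cuts collagen and activates the gelatinase Mmp2. Mmp14 (ENSMUSG00000000957, chromosome 14, 54431612 to 54445364, plus strand, GRCm38) was at 88.8, 50.3, 50.2, 77.4 and 58.5 TPM in KO replicates 1 to 5. It was at 296, 308 and 357 TPM in replicates 2, 3 and 4 of WT, against 83.2, 62.7, 74.5 and 79.4 TPM in WT replicates 1, 5, 6 and 7. The KO libraries overlapped replicates 1, 5, 6 and 7 and lay far below WT replicates 2, 3 and 4. The log2 fold change was -1.13 ± 0.485 (SE) with 12 libraries and -0.23 ± 0.174 (SE) with 9, with adjusted p-values in limma of 0.270 and 0.519.

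The promoter windows of Mmp12 and Mmp13 below are shown because they are the member windows that contain TGANTCA, in capitals. Mmp12 has 2 listed start sites, and the window of its outer one, chr9:7344147-7344396, holds no match. In RefSeq (GRCm38.p6) 7 of the 10 genes had an entry, with 9 start sites in all, and 2 of the 9 windows held the motif. Over all 32851 promoters in the table, 2565 (7.81%) held it in the window from 250 bases before to 50 after the start. The Mmp12 window shown, of the inner start, is chr9:7347124-7347373, with its match 44 bases before that start. The Mmp13 window is chr9:7272264-7272513, with its match 35 bases before the start. Both are on the plus strand and printed 5′ to 3′ up to the start. A match describes these letters and says nothing of binding in these cells. Mmp9 and Mmp19 have no entry.
Mmp12: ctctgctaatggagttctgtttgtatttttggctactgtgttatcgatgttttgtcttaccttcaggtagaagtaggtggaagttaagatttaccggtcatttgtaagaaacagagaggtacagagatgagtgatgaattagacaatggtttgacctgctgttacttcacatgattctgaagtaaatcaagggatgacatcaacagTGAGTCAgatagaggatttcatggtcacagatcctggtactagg
Mmp13: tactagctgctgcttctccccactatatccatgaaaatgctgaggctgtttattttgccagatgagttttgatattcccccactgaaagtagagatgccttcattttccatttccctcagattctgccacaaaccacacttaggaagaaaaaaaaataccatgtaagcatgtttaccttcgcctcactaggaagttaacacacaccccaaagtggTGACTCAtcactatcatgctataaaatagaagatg

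Of the inhibitors, Timp1 had KO levels on both sides of those of WT replicates 1, 5 and 7. Timp1 (ENSMUSG00000001131, chromosome X, 20870166 to 20874735, plus strand, GRCm38), a secreted inhibitor of most soluble metalloproteinases, was at 33.8, 74.7, 67.4, 51.5 and 99.7 TPM in KO replicates 1 to 5. It was at 635, 458 and 616 TPM in replicates 2, 3 and 4 of WT, against 65.0, 66.1, 20.7 and 65.0 TPM in WT replicates 1, 5, 6 and 7. WT replicate 6 was the lowest of all 12 libraries, and WT replicates 2, 3 and 4 lay 4.59-fold or more above every other library. KO and WT differed by a log2 fold change of -1.18 ± 0.839 (SE) with 12 libraries and 0.32 ± 0.394 (SE) with 9, with adjusted p-values in limma of 0.390 and 0.713. Syn1, on the opposite strand over part of Timp1, was at 2.02 to 3.47 TPM.

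Timp2 was the most abundant inhibitor gene in KO and in WT replicates 1, 5, 6 and 7. Timp2 (ENSMUSG00000017466, chromosome 11, 118301069 to 118355740, minus strand, GRCm38), which both inhibits metalloproteinases and helps Mmp14 to activate Mmp2, was at 208, 336, 329, 255 and 311 TPM in KO replicates 1 to 5. It was at 512, 471 and 546 TPM in replicates 2, 3 and 4 of WT, against 305, 426, 215 and 334 TPM in WT replicates 1, 5, 6 and 7. WT replicates 2, 3 and 4 were the 3 highest, only 1.11-fold above WT replicate 5 at the nearest. The log2 fold change was -0.44 ± 0.226 (SE) with 12 libraries and -0.13 ± 0.2004 (SE) with 9, with adjusted p-values in limma of 0.312 and 0.769. Cep295nl, which overlaps Timp2 on the same strand, was at 0.33 to 3.52 TPM.

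Timp3, the inhibitor that binds to the matrix itself, was the lowest inhibitor gene in every library. Timp3 (ENSMUSG00000020044, chromosome 10, 86300372 to 86349506, plus strand, GRCm38) was at 3.80, 7.32, 6.77, 4.92 and 8.68 TPM in KO replicates 1 to 5. It was at 85.9, 44.5 and 134.03 TPM in replicates 2, 3 and 4 of WT, against 9.33, 6.16, 1.72 and 7.31 TPM in WT replicates 1, 5, 6 and 7. All KO levels fell within the range of WT replicates 1, 5, 6 and 7, and WT replicates 2, 3 and 4 lay 4.77-fold or more above every other library. KO and WT differed by a log2 fold change of -1.42 ± 0.886 (SE) with 12 libraries and 0.15 ± 0.367 (SE) with 9, with adjusted p-values in limma of 0.346 and 0.867. Syn3, on the opposite strand over part of Timp3, was at 0.01 to 0.56 TPM.

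**Figure D2:**
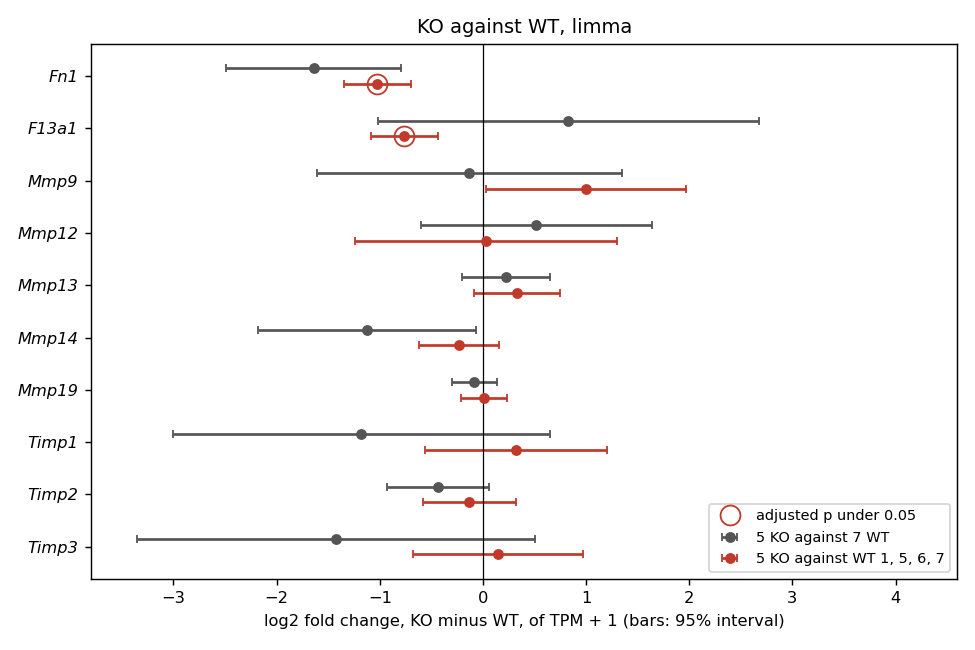
Log2 fold change of TPM + 1, KO minus WT, for the 10 genes (horizontal axis), with bars for the 95% interval. Grey points compare 5 KO with 7 WT libraries and red points compare 5 KO with WT replicates 1, 5, 6 and 7; the ringed points, Fn1 at -1.02 and F13a1 at -0.76, passed an adjusted p of 0.05.

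The 3 libraries with high stromal markers were next set beside the other WT libraries. They were told apart by measured values, so no test is given and values are set side by side. WT replicates 2, 3 and 4 all lay above WT replicates 1, 5, 6 and 7 for 7 of the 10 genes (Fn1, Mmp9, Mmp14, Mmp19, Timp1, Timp2 and Timp3), where this held for 29.9% of all genes tested. They all lay below them for 2 of the 10 (F13a1 and Mmp12), where this held for 28.3% of all genes tested. Mmp13 overlapped. The gap between the nearest libraries of the 2 sets was 7.68-fold for F13a1, 6.93-fold for Timp1, 5.76-fold for Mmp9, 4.77-fold for Timp3, 3.56-fold for Mmp14 and 1.61-fold for Fn1. For Timp2, Mmp19 and Mmp12 it was 1.11-fold, 1.03-fold and 1.01-fold. Against all other 9 libraries, KO included, WT replicates 2, 3 and 4 remained above for Fn1, Mmp14, Timp1, Timp2 and Timp3 and below for F13a1. Their Mmp9, Mmp12 and Mmp19 levels reached into the range of the other 9. Among the 3 libraries, replicate 4 had the highest stromal sum (13322 TPM) and the highest Fn1, Mmp12, Mmp14, Timp2 and Timp3 levels. Replicate 2 had the highest Mmp9, Mmp19 and Timp1 levels, and replicate 3, with the lowest sum (5185 TPM), the highest F13a1 and Mmp13 levels. Macrophage marker sums were 2668 TPM in replicate 4, 3821 TPM in replicate 2 and 5517 TPM in replicate 3. The part of stromal or macrophage content in these differences was not tested.

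Within the 9 remaining libraries, Timp1 and Timp3 followed the stromal sum. Across these 9, log2(TPM + 1) of Timp1 had a Pearson correlation of 0.993 with the log2 stromal sum (exact two-sided permutation p = 4.13e-05, or 0.000413 adjusted over the 10 genes). Spearman's rho was 0.917 (exact permutation p = 0.00131, adjusted 0.00656), and r was 0.952 without KO replicate 1 and WT replicate 6, the 2 libraries farthest from the median sum. Timp3 had an r of 0.969 (exact permutation p = 0.000367, adjusted 0.00183) and a rho of 0.833 (p = 0.00827, adjusted 0.0207), with an r of 0.81 without those 2 libraries. Mmp12 had an r of 0.849 (exact permutation p = 0.00979, adjusted 0.0247) and a rho of 0.833 (p = 0.00827, adjusted 0.0207), with an r of 0.804 without them. Mmp13 and Mmp19 had r of 0.735 and 0.73 (exact permutation p = 0.0229 and 0.0254, both adjusted 0.0423) and rho of 0.917 and 0.8 (adjusted 0.00656 and 0.0277), with r of 0.73 and 0.577 without the 2 libraries. Timp2 had an r of 0.791 (exact permutation p = 0.00988, adjusted 0.0247), but its rho was 0.633 (p = 0.076, adjusted 0.127) and its r was 0.35 without the 2 libraries, so the relation rested on them.

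With both genotypes pooled, the relation of Fn1 and F13a1, called lower in KO, with the stromal sum did not pass the threshold. Their r were 0.119 and -0.391 (exact permutation p = 0.766 and 0.308, adjusted 0.766 and 0.343), and their rho were 0.0667 and -0.5 (adjusted 0.88 and 0.197). Mmp9 and Mmp14 had r of 0.456 and -0.49 (exact permutation p = 0.181 and 0.184, both adjusted 0.23), with rho of 0.5 and -0.5 (both adjusted 0.197). Pooling can hide a relation within each genotype where levels differ between genotypes. Genotypes held 5 and 4 libraries, too few for a correlation within each. KO replicate 1 and WT replicate 6 had the lowest stromal sums of their genotypes. Within their genotypes in these 9 libraries, they also had the lowest Fn1 and the highest F13a1 levels. Submission numbers above 5 covered 6 of the 9 libraries, and there r was 0.994 for Timp1, 0.994 for Timp3, 0.957 for Mmp12, 0.818 for Mmp19, 0.758 for Timp2 and 0.719 for Mmp13; the other 3 libraries were too few. With the stromal covariate and 9 libraries, the log2 fold change of F13a1 was -0.71 (adjusted p by limma, 0.0173) and that of Timp1 was -0.0014. The relation with the stromal sum was examined after these levels had been seen. The share of all genes tested that have such a relation was not computed. In KO the neutrophil marker sum was highest in replicates 1 and 4, where the stromal sum was lowest. It was lowest in replicate 5, where the stromal sum was highest, so the 2 contents cannot be told apart there.

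**Figure D3:**
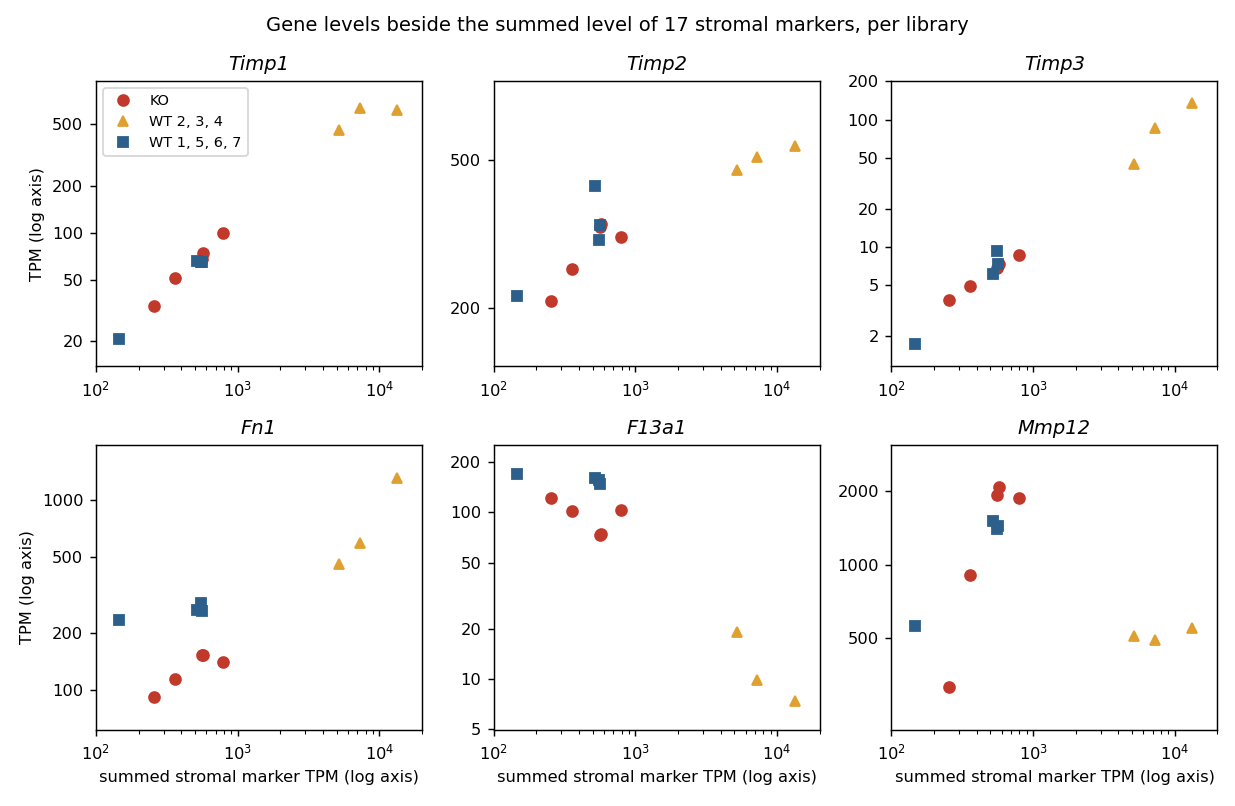
TPM of 6 of the genes (vertical log axes) against the summed TPM of 17 fibroblast and smooth muscle markers (horizontal log axes), 1 point per library. For KO and WT replicates 1, 5, 6 and 7, Timp1 and Timp3 rise with the sum along 1 line. Their r over these 9 libraries are 0.993 and 0.969. At sums of 520 to 571 TPM, Fn1 and F13a1 lie lower in KO replicates 2 and 3 than in WT replicates 1, 5 and 7.

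The balance of inhibitor to enzyme transcripts was set out per library as summed TPM. The 5 metalloproteinase genes summed to 431, 2168, 2021, 1016 and 2024 TPM in KO replicates 1 to 5. They summed to 863, 895 and 973 TPM in WT replicates 2, 3 and 4, and to 1522, 1605, 661 and 1551 TPM in WT replicates 1, 5, 6 and 7. The 3 Timp genes summed to 246 to 419 TPM in KO, to 974 to 1296 TPM in WT replicates 2, 3 and 4, and to 237 to 498 TPM in the other WT libraries. Mmp12 alone supplied 72.5% to 95.8% of the enzyme sum in KO, 56.6% to 56.8% in WT replicates 2, 3 and 4 and 84.5% to 94.2% in the other WT libraries. The ratio of the Timp sum to the metalloproteinase sum was 0.570, 0.193, 0.1998, 0.306 and 0.207 in KO replicates 1 to 5. It was 1.43, 1.09 and 1.33 in WT replicates 2, 3 and 4, and 0.249, 0.310, 0.359 and 0.262 in WT replicates 1, 5, 6 and 7. KO ratios lay on both sides of those of WT replicates 1, 5, 6 and 7. Only in WT replicates 2, 3 and 4 did the 3 Timp genes sum to more than these 5 metalloproteinase genes. The 14 other metalloproteinase genes were left out of this ratio, which they would lower. They summed to 292, 238 and 361 TPM in WT replicates 2, 3 and 4 and to 19.4 to 33.3 TPM elsewhere. With them added to the enzyme sum, the Timp sum would stay the larger in WT replicate 2 but not in WT replicates 3 and 4. The excess of Timp transcripts in those 2 libraries thus depends on which metalloproteinase genes are counted.

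**Figure D4:**
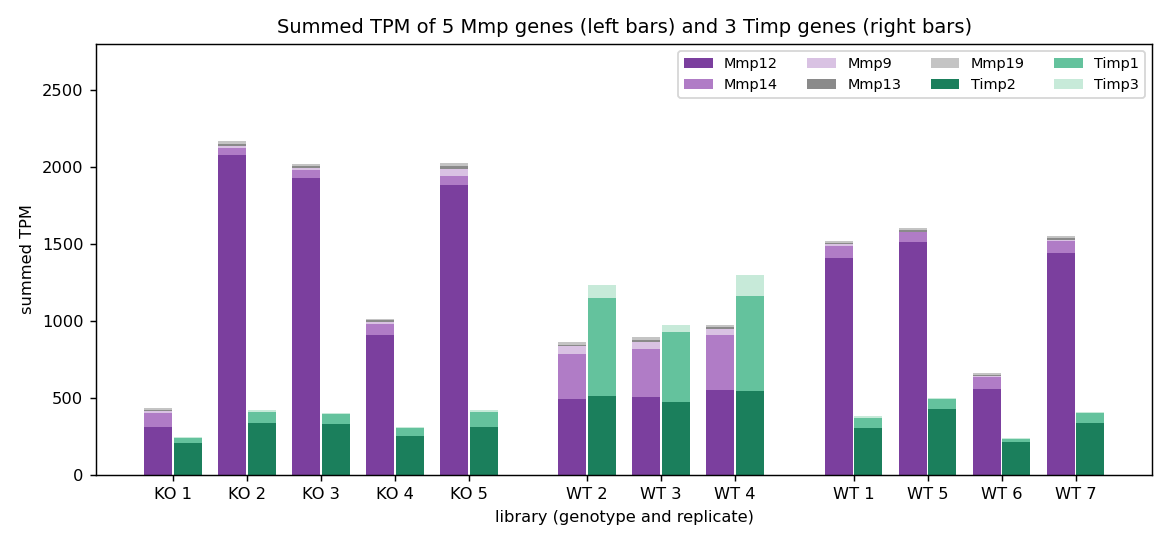
Summed TPM per library (vertical axis from 0), with the 5 Mmp genes stacked in the left bar and the 3 Timp genes in the right bar of each pair. The Timp bar is taller than the Mmp bar only in WT replicates 2, 3 and 4, where the ratio is 1.09 to 1.43. The 14 other metalloproteinase genes are not in the bars, and with them the Timp sum would be the larger in WT replicate 2 only.

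The promoters of Timp1 and Timp3 are printed because these 2 genes had the highest correlations with the stromal sum. The windows are chrX:20869916-20870165 and chr10:86300162-86300411 (GRCm38.p6, RefSeq, plus strand), 5′ to 3′ up to the start. Neither contains TGANTCA, so no letter is in capitals.
Timp1: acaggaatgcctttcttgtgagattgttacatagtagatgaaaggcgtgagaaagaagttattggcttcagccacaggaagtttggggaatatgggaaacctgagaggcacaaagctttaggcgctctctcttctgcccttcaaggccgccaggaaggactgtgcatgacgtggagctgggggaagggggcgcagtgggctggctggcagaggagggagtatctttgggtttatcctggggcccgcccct
Timp3: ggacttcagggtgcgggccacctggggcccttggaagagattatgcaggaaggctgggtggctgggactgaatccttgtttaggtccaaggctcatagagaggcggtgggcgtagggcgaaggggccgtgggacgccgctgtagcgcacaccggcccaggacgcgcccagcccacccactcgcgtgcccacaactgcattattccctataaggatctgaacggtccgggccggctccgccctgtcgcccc

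Likeness of pattern was measured as the root mean square difference of log2(TPM + 1), each gene centred on its own mean, over all 12 libraries. Among the 10 genes, the closest pairs were Mmp13 with Mmp19 (0.28) and Timp1 with Timp3 (0.313). Among the other tested genes whose mean reached 5 TPM, the 2 nearest to Timp3 were Thbs1 (0.132), which encodes the matrix protein thrombospondin 1, and Nedd4 (0.152). The nearest to Timp1 were the collagen gene Col12a1 (0.186) and the collagen crosslinking gene Loxl1 (0.189). Fn1 was nearest to Hes1 (0.334), a transcription factor of the Notch pathway, and Nuak1 (0.339), and F13a1 to the potassium channel gene Kcna3 (0.31) and the complement gene C1qa (0.314). A small value over all 12 libraries need not mean a shared difference between KO and WT. Kcna3 was at 14.5 to 22.5 TPM in KO and 20.2 to 26.9 TPM in WT replicates 1, 5, 6 and 7. C1qa was at 2241 to 2483 TPM and 2461 to 3113 TPM there, so both overlapped where F13a1 did not. Hes1 and Nuak1, like Fn1, were lower in every KO library than in those WT libraries. Mmp12 was nearest to Mamdc2 (0.307) and Acp5 (0.389), and Mmp14 to the lectin receptor gene Clec4n (0.221) and Rbpms (0.249). Mmp9 had no near neighbour, with Ptk2 at 0.589 and Ap5s1 at 0.59 beside a spread of 1.15 of Mmp9 about its own mean. Mmp13 was nearest to Amz1 (0.174) and Atf3 (0.199), Mmp19 to Tollip (0.0672) and Atg12 (0.0744), and Timp2 to Wsb2 (0.161) and the prion protein gene Prnp (0.165). The small values of Mmp13, Mmp19 and Timp2 stand beside small spreads about their means, of 0.346, 0.161 and 0.437.

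Other genes of matrix attachment and turnover were read from the same fits, with 0 called in limma in any list with 12 libraries and 0 to 3 genes per list at an unadjusted p of 0.05. Of 13 fibronectin receptor genes, 10 were tested, and with 9 libraries 3 rose and 1 fell in KO, at a median log2 fold change of 0.12. Over all 11152 genes tested in that comparison, 180 rose and 80 fell (2.33% called) and the median was 0.05. Cd44, the hyaluronan receptor that also binds fibronectin, was at 179.1 ± 7.24 TPM in KO and 150.4 ± 7.91 TPM in WT (SD, n = 5 and 4), a log2 fold change of 0.25 at an adjusted p of 0.0246 (limma). Sdc4 (syndecan 4) rose by 0.27 and Itgb7 (integrin beta 7) by 0.83 on the log2 scale, with adjusted p-values in limma of 0.0354 and 0.0483. With 12 libraries the log2 fold changes of Cd44, Sdc4 and Itgb7 were 0.21, 0.29 and 0.30 (adjusted p by limma, 0.208, 0.176 and 0.543). Itgb5 (integrin beta 5) was at 340.5 ± 14.7 TPM in KO and 416 ± 8.41 TPM in WT (SD, n = 5 and 4) and fell by 0.29 on the log2 scale, at an adjusted p of 0.00814 (limma). With 12 libraries its log2 fold change was 0.36 (adjusted p by limma, 0.497), and WT replicates 2, 3 and 4 were at 134.0, 157 and 144 TPM. The 9-library call of Itgb5 held in all 9 fits that left out a library, with adjusted p-values in limma of 0.00917 to 0.0422. That of Cd44 held only without KO replicates 1 or 5 or WT replicate 6, that of Sdc4 only without KO replicate 2 or WT replicate 6, and that of Itgb7 only without KO replicate 1. In the other such fits the limma adjusted p reached 0.0834 for Cd44, 0.109 for Sdc4 and 0.114 for Itgb7, and all 3 calls were also lost under median-ratio scaling (0.0558, 0.0761 and 0.0564) and with the term for the submission number (0.0517, 0.0575 and 0.0878). Without the filter on low values the calls of Sdc4 and Itgb7 were lost (0.0547 and 0.0836).

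Of 20 genes of coagulation and crosslinking, 15 were tested and 1 was called with 9 libraries, at a list median of 0.10. Tgm2, the tissue transglutaminase and a relative of factor XIII, was at 242, 230.3, 225, 236 and 242 TPM in KO replicates 1 to 5. It was at 115, 139.9 and 105 TPM in replicates 2, 3 and 4 of WT, against 173, 187, 218 and 174 TPM in WT replicates 1, 5, 6 and 7. All KO libraries lay above all WT libraries, the reverse of F13a1 among the 9 libraries. The log2 fold change was 0.33 ± 0.0653 (SE) with 9 libraries and 0.60 with 12, with adjusted p-values in limma of 0.0364 and 0.187. With 9 libraries the call held only in the fit without WT replicate 6 among the 9 that left out a library, with a limma adjusted p of up to 0.112 in the others, and was lost under median-ratio scaling (0.0802), with the submission number term (0.0596) and without the filter (0.0637).

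In the remaining lists 0 genes were called with 9 libraries as well. At an unadjusted p of 0.05 in limma, 2111 of all 11152 genes tested passed in that comparison. The lists were 6 tested of 14 other metalloproteinase genes (3 at that unadjusted p), 7 of 12 inhibitors and activators (3 unadjusted), 11 of 13 ADAM and ADAMTS proteinases (2 unadjusted), 8 of 8 cathepsins and related genes (2 unadjusted) and 14 of 16 matricellular proteins (0 unadjusted). Mmp2, the gelatinase that Mmp14 activates, was at 3.64 to 6.2 TPM in KO, at 121, 78.0 and 183 TPM in WT replicates 2, 3 and 4, and at 1.89 to 7.00 TPM in the other WT libraries. Its log2 fold change was 0.11 with 9 libraries and -1.82 with 12 (adjusted p by limma, 0.869 and 0.328). Mmp8, a neutrophil collagenase, was at 7.20 ± 1.31 TPM in KO and 10.1 ± 1.45 TPM in WT replicates 1, 5, 6 and 7 (SD, n = 5 and 4), a log2 fold change of -0.44 at an adjusted p of 0.104 (limma). With 12 libraries its log2 fold change was -1.58 (adjusted p by limma, 0.249), with 65.6 to 72.2 TPM in WT replicates 2, 3 and 4. Plau, the urokinase that turns plasminogen into plasmin, was at 1341 ± 239 TPM in KO and 968 ± 18.5 TPM in those WT libraries, a log2 fold change of 0.45 at an adjusted p of 0.0821 (limma). With 12 libraries the log2 fold change of Plau was 1.68 (adjusted p by limma, 0.2504), with 125 to 143 TPM in WT replicates 2, 3 and 4. Bsg, which encodes an inducer of metalloproteinases, had a log2 fold change of -0.02 with 9 libraries and -0.37 with 12 (adjusted p by limma, 0.817 and 0.308). Adam8 and Adam15, membrane-bound sheddases, had log2 fold changes of 0.20 and -0.15 with 9 libraries (adjusted p by limma, 0.0828 and 0.262), and of 0.73 and 0.30 with 12 (adjusted p by limma, 0.253 and 0.449). The lysosomal proteases Ctsb and Ctsl had log2 fold changes of 0.098 and 0.38 with 9 libraries (adjusted p by limma, 0.643 and 0.481), and of 0.24 and 0.56 with 12 (adjusted p by limma, 0.336 and 0.261). Spp1 (osteopontin) and Lgals3 (galectin 3) had log2 fold changes of -0.03 and 0.26 with 9 libraries (adjusted p by limma, 0.964 and 0.481), and of 0.48 and 0.39 with 12 (adjusted p by limma, 0.381 and 0.3202).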

How the data were processed

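The authors deposited 1 table of TPM values, a column per library, for 23438 Ensembl gene IDs. Salmon 1.2.0, bcl2fastq and the build mm10 are named in the submitters' processing notes. The labels' protocols give paired reads of 51 bases and an average of 30000000 read pairs per library. Not given in the sources used here are the annotation, how transcripts were summed per gene and whether strand was used. TPM keeps no depth, so the reads behind a value are unknown and no counting interval was computed. Listed genes summed to 940127 to 947987 TPM per library.

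Symbols and coordinates came from GENCODE M21 of GRCm38, with 23423 of the 23438 IDs matched. Columns were assigned through the submission names in the labels, and 0 pairs of libraries held identical values. A count test was planned for counts, and since the table holds TPM, limma-trend (limma 3.58.1, R 4.3.3) was fitted to log2(TPM + 1) over the 11152 genes that reached 1 TPM in 5 or more of the 12 libraries. P-values were adjusted by Benjamini-Hochberg over all of them, with a threshold of 0.05. The fit was tested on simulated data. Alternatives were a pseudocount of 0.1, no filter, a minimum of 5 TPM, median-ratio scaling, sample quality weights, a stromal covariate, a submission block (submission numbers up to 5 against the rest), a replicate block, a threshold of 0.1 and leaving out libraries.

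The 10 genes, the other gene lists, the marker lists and the choice to leave out WT replicates 2, 3 and 4 were made with earlier results of these data known. All 10 genes are named. From each other list, up to 3 called genes per direction are named, or up to 2 with the highest mean TPM where none was called. Promoter sequences came from RefSeq (GRCm38.p6).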

Additional observations from a re-analysis of the deposited data

Results flagged for a closer look

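A library was far from others of its genotype where its gap to the nearest was large against their whole range (Dixon's 95% critical value). Chance flags about 1 in 20 groups where each group is 1 normal sample. The WT groups, split by replicates 2, 3 and 4, are not, so that rate is no yardstick for them. Of 20 groups examined (10 genes in 2 genotypes), 3 had such a library. Mmp9 in KO replicate 5 was at 48.65 TPM, far above the other 4 KO libraries. Fn1 in WT replicate 4 was at 1308 TPM, far above the other 6 WT libraries. Mmp13 in WT replicate 3 was at 17.65 TPM, the highest of the 7 WT libraries.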

How the results depend on the processing

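Fn1 was lower in KO under every alternative run. In the 12-library comparison (14 genes called), other settings called 4 genes with median-ratio scaling, 759 with sample quality weights, 3 with the submission block, 157 with the stromal covariate, 29 at an adjusted p of 0.1, 260 without WT replicates 2, 3 and 4, and 2 to 36 when leaving out 1 library (36 without WT replicate 6). Of the 10 genes, 1 was called with quality weights and 1 with the stromal covariate (Fn1 both times), and 2 without WT replicates 2, 3 and 4. Labels tie no same-numbered libraries together, and correlations of their deviations were -0.24 to 0.28. A replicate block on the 10 libraries numbered 1 to 5 gave 0 calls in limma (3706 genes at an unadjusted p of 0.05), against 13 without the block (3945 genes), and 0 of the 10 genes in either.

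With 9 libraries (260 genes), the count was 758 with quality weights, 132 with the submission block, 853 with the stromal covariate, 695 at an adjusted p of 0.1, and 51 (without WT replicate 1) to 462 (without WT replicate 6) when leaving out 1 library. Median-ratio scaling called 221 genes, 83 of them higher in KO, against 180 of 260 as deposited. Of the 10 genes, 1 was called without a filter and 1 with the submission block, F13a1 being lost (limma adjusted p of 0.0616 and 0.0585), and 0 to 3 when leaving out 1 library.

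Directions that turned were of log2 fold changes not called in the comparison they belong to, and their cause was not tested. With 12 libraries, quality weights gave -0.64 for F13a1, 0.77 for Mmp9, -0.0069 for Mmp12, 0.0017 for Mmp19 and -0.23 for Itgb5. The stromal covariate gave -0.37 for F13a1, 0.74 for Mmp9, 0.0063 for Mmp19, 0.043 for Timp1 and -0.11 for Itgb5. Leaving out WT replicates 2, 3 and 4 gave -0.76 for F13a1, 0.997 for Mmp9, 0.011 for Mmp19, 0.32 for Timp1, 0.15 for Timp3 and -0.29 for Itgb5. Leaving out 1 library gave -0.57 to 0.13 for Mmp9. With 9 libraries, median-ratio scaling gave -0.022 for Mmp12 and -0.033 for Mmp19, and quality weights -0.056 for Mmp12 and -0.14 for Timp3. The stromal covariate gave -0.38 for Mmp12, -0.047 for Mmp19, -0.0014 for Timp1 and -0.14 for Timp3. Leaving out 1 library gave -0.32 to 0.50 for Mmp12, -0.043 to 0.088 for Mmp19, -0.086 to 0.53 for Timp1, -0.31 to 0.019 for Timp2 and -0.26 to 0.38 for Timp3.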
